A study of Mus musculus with 9 samples.

Results

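Mitochondrial ribosomal protein genes were taken as every row of the gene table whose symbol starts with Mrpl or Mrps followed by a digit. They were 78 of the 14771 genes in the table, 49 named for the large subunit (Mrpl) and 29 named for the small subunit (Mrps). All 78 passed the filter on low counts that left 11281 genes tested. The rule used symbols and no measured value.

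The libraries come from MH-S, an established alveolar macrophage line of the mouse, and each of the 3 groups has 3 of them, numbered 1 to 3. The group labelled suramin (SUR) is described in the protocol as given 200 µM suramin, a polyanionic drug, together with 1 µg/ml LPS for 4 h, whereas the sample label names suramin without LPS. LPS libraries are from cells given lipopolysaccharide, a TLR4 ligand of bacterial outer membranes, at 1 µg/ml for 4 h. The CON group received 1640 medium, and no label says that libraries of a group came from separate cultures, so p-values speak of the spread between libraries alone, which may be technical. In such bulk libraries, fewer cells of a type and less RNA per cell cannot be told apart.

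The mitochondrial ribosome sits in the matrix and translates the few proteins encoded by mitochondrial DNA, all of them subunits of oxidative phosphorylation complexes. Its RNAs come from the mitochondrial genome, while its proteins are encoded in the nucleus, made in the cytosol and imported. The large subunit carries the peptidyl transferase centre and the exit tunnel, the small subunit reads the mRNA, and many of the proteins have bacterial counterparts while others are found only in mitochondria.

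The 2 members with the largest falls in LPS libraries and the 1 member that rose there were large subunit genes, so the stretches before their starts are shown as RefSeq gives them on GRCm38.p6. Mrpl49 (chr19:6053630-6057755, minus strand) encodes a large subunit protein with no bacterial counterpart. Mrpl44 (chr1:79776018-79781445, plus strand) encodes a protein of ribonuclease III type that lies in the large subunit, and Mrpl39 (chr16:84718281-84735244, minus strand) encodes one that resembles threonyl-tRNA synthetase. The 250 bases before each start run from 5′ to 3′ along the gene's strand, at chr19:6057756-6058005, chr1:79775768-79776017 and chr16:84735245-84735494, and capitals mark an NRF1 motif.
Mrpl49: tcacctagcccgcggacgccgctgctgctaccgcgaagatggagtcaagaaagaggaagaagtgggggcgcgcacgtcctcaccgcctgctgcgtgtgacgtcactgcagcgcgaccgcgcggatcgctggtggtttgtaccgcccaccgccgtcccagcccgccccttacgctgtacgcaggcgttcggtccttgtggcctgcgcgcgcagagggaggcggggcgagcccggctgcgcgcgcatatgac
Mrpl44: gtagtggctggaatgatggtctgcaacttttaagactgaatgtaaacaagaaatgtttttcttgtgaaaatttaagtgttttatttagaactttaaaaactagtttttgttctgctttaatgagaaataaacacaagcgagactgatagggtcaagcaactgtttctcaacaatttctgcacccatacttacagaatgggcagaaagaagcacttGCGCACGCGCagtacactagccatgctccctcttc
Mrpl39: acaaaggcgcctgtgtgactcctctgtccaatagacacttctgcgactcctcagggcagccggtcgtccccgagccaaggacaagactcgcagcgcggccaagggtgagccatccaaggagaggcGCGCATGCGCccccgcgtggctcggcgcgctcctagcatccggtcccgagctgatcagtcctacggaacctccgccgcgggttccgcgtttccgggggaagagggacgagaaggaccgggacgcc

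NRF1 is a transcription factor known for nuclear genes of mitochondrial function, and its motif, like the others below, was searched on both strands with 0 mismatches. The motif stood 35 to 26 bases before the RefSeq start of Mrpl44 and 125 to 116 bases before that of Mrpl39, where it reads the same on both strands. GENCODE vM21 places the start of Mrpl39 further upstream, beyond the whole stretch shown, so the stretch lies before the start only by RefSeq's annotation. The windows ran from 250 bases before to 50 bases after the start, and RefSeq's table held one for 69 of the 78 members. NRF1 letters were in 13 of the 69 (18.8%), against 12.3% of 9140 tested genes and 5.19% of all 27025 genes in that table. The YY1 motif was found in 5 members (7.25%), against 2.59% of tested genes, and an ETS motif (ACTTCCGG) in 12 members (17.4%), against 9.97%. An E-box (CACGTG) was in 5 members (7.25%), against 12% of tested genes. Mrpl49 held none of the 4 motifs in its window.

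The members' mRNAs were moderately abundant and steady. Per length, their mean over 9 libraries had a median of 71.1 TPM, against 20.5 TPM over all tested genes, and it was 71.1 TPM in each subunit. Among Mrpl genes the highest levels belonged to Mrpl30 (285 TPM), Mrpl33 (226 TPM) and Mrpl52 (212 TPM), and the lowest to Mrpl41 (14.0 TPM) and Mrpl35 (15.1 TPM). Among Mrps genes they belonged to Mrps18c (293 TPM), Mrps21 (254 TPM) and Mrps18a (168 TPM), and the lowest to Mrps25 (5.88 TPM) and Mrps31 (24.7 TPM). Every member had between 198 and 2201 counts in each library.

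The coefficient of variation of CPM (a gene's count relative to library size, with TMM scaling) over the 9 libraries had a median of 7.53% for the members and 12.9% for all tested genes. It was lowest for Mrpl58, a peptidyl-tRNA hydrolase that frees stalled mitochondrial ribosomes, at 3.24%, and highest for Mrpl49, at 22.1%. Mrpl58 had 33.2, 32.6 and 32.0 CPM in SUR libraries 1, 2 and 3, 34.9, 34.2 and 33.0 CPM in LPS, and 34.5, 35.2 and 33.9 CPM in CON.

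The balance between the subunits was close in the 3 groups. Summed TPM of Mrpl genes over that of Mrps genes was 1.694 ± 0.0204 in SUR, 1.708 ± 0.0228 in LPS and 1.682 ± 0.0363 in CON (SD, n = 3 each), and libraries of the groups overlapped. Some Mrps symbols do not follow position: the Mrps18a and Mrps30 proteins lie in the large subunit, and the Mrps36 protein is known as part of the 2-oxoglutarate dehydrogenase complex. With the first pair moved to the large subunit and Mrps36 left out, the ratio was 2.005 in SUR, 2.04 in LPS and 2.003 in CON. Members took 0.332% of all counts in SUR, 0.319% in LPS and 0.357% in CON, without TMM scaling. LPS libraries (0.31% to 0.331%) and SUR libraries (0.328% to 0.338%) were all below CON libraries (0.351% to 0.362%). TMM factors were 0.934 to 0.95 in LPS, 1.02 to 1.04 in SUR and 1.03 to 1.04 in CON, so scaled values differ from these shares.

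**Figure D1:**
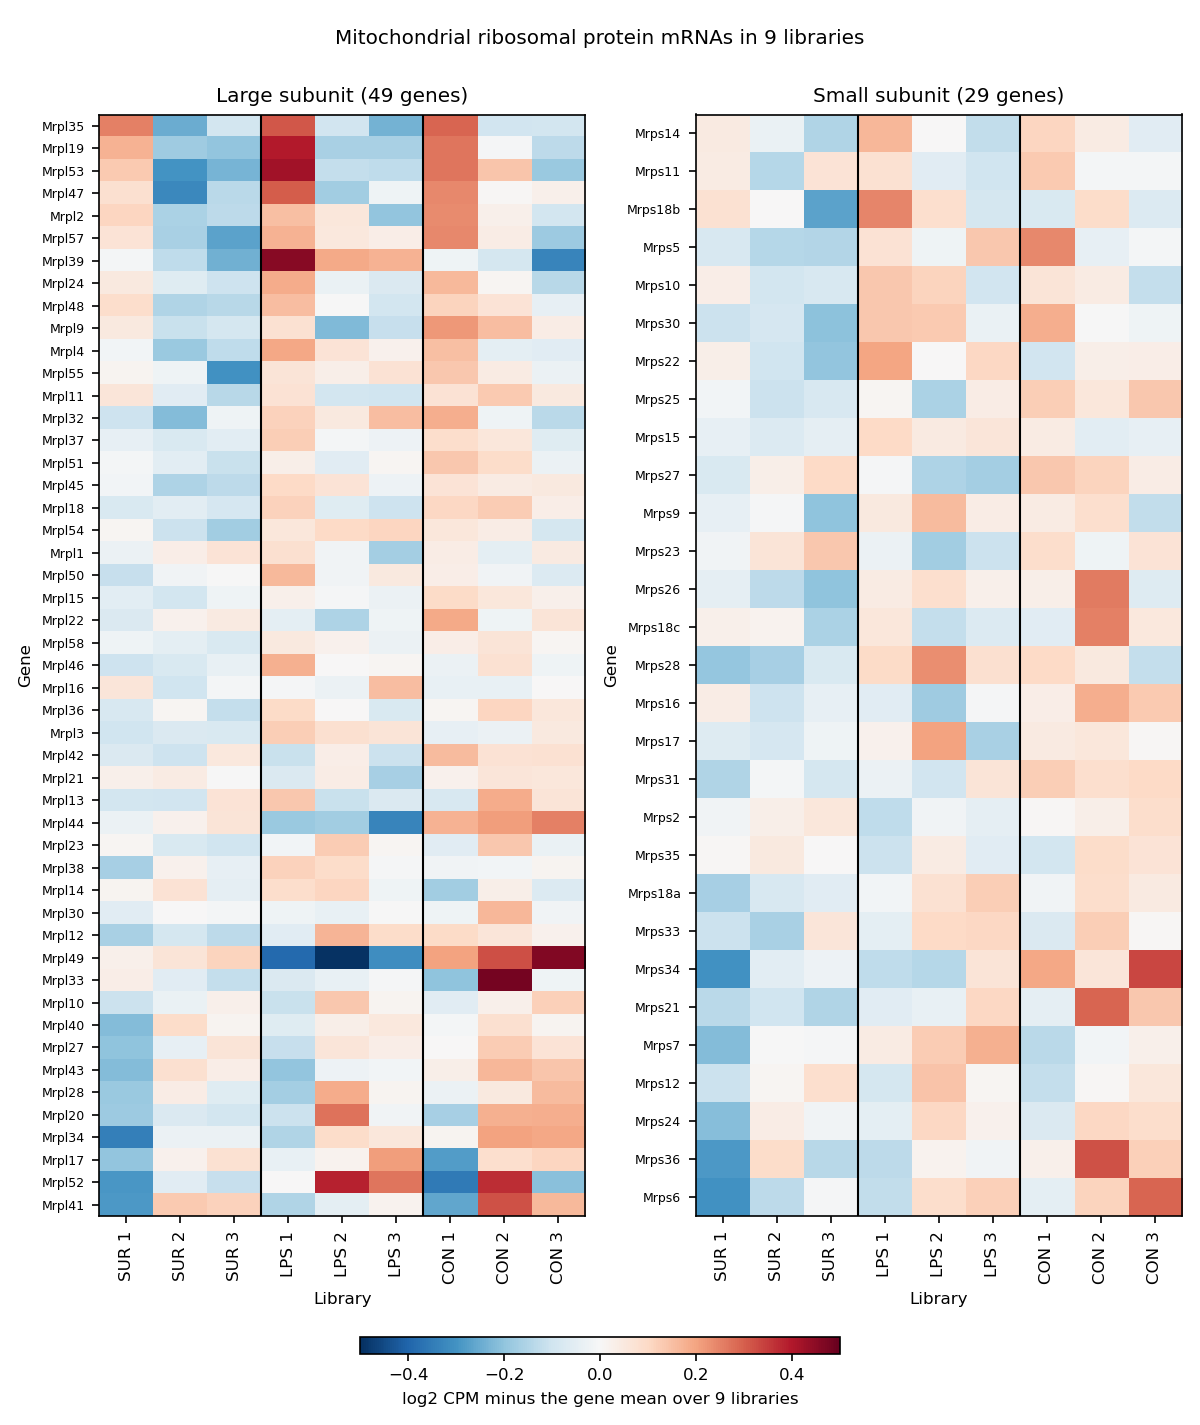
Each row is a member and each column a library; colour gives log2 CPM minus the gene's mean over 9 libraries, clipped at 0.5 in either direction, and rows are ordered by the difference between the libraries numbered 1 and the others. Mrpl49 and Mrpl44 are low in all 3 LPS libraries and Mrpl39 is high in them. Rows at the top and bottom follow the number rather than the group, which the order of the rows selects for.

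In LPS against CON, 1 of 78 members rose (1.28%) and 2 fell (2.56%), while 8.98% of all tested genes rose and 9.36% fell (edgeR's quasi-likelihood test, adjusted p under 0.05). Both shares were below the background. The 3 were Mrpl39, Mrpl49 and Mrpl44, all large subunit members without a bacterial counterpart. Of the 45 members with one, 0 were called in this fit in any of the 3 group comparisons. With the replicate number as a block, 1 of these 45 was higher and 3 lower in LPS against CON, among 20.1% and 21.7% of all tested genes. The block had 7 lower in SUR against LPS and 5 lower in SUR against CON, among 22.7% and 4.18% of genes. Upper-quartile scaling had 3 lower in LPS against CON, among 1709 of 11281 genes, and limma on log2(FPKM + 1) had 7, among 2040. That limma fit had 2 higher in SUR against LPS, among 1970 genes. The fits without the libraries numbered 1 had 1 lower in LPS against CON and 3 in SUR against LPS, among 14.4% and 15.2% of genes. In SUR against CON they had 1 lower, among 0.742%. Over all members, the median log2 fold change in LPS against CON was -0.02 for the large and -0.02 for the small subunit, beside -0.01 for all tested genes.

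Mrpl49 had 18.4, 17.1 and 19.4 CPM in LPS libraries 1, 2 and 3, against 27.7, 30.1 and 33.2 CPM in CON. The groups did not overlap, and edgeR put the LPS level 1.66-fold lower (log2 difference of -0.73 with SE 0.0885 and adjusted p = 0.000614). Mrpl44 had 38.9, 39.3 and 35.2 CPM in LPS and 50, 51.2 and 52.7 CPM in CON. All LPS libraries were again lower, by 1.36-fold (log2 difference of -0.44 with SE 0.0659 and adjusted p = 0.00179). Both calls stood in every fit without a single library and in each of the other settings run.

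Mrpl39 had 102, 84.9 and 84.1 CPM in LPS, against 73.4, 70.0 and 59.3 CPM in CON. Every LPS library lay above the CON libraries, by 1.34-fold on average (log2 fold change 0.42, SE 0.109, adjusted p = 0.0273). The call was lost without CON 2 (adjusted p = 0.0645), without CON 3 (0.0973) or without LPS 1 (0.077), with upper-quartile scaling (0.0624) and in limma on log2(FPKM + 1) (0.0615) or log2(FPKM + 0.1) (0.0609). Mrpl39 was also higher in the libraries numbered 1 of every group.

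**Figure D2:**
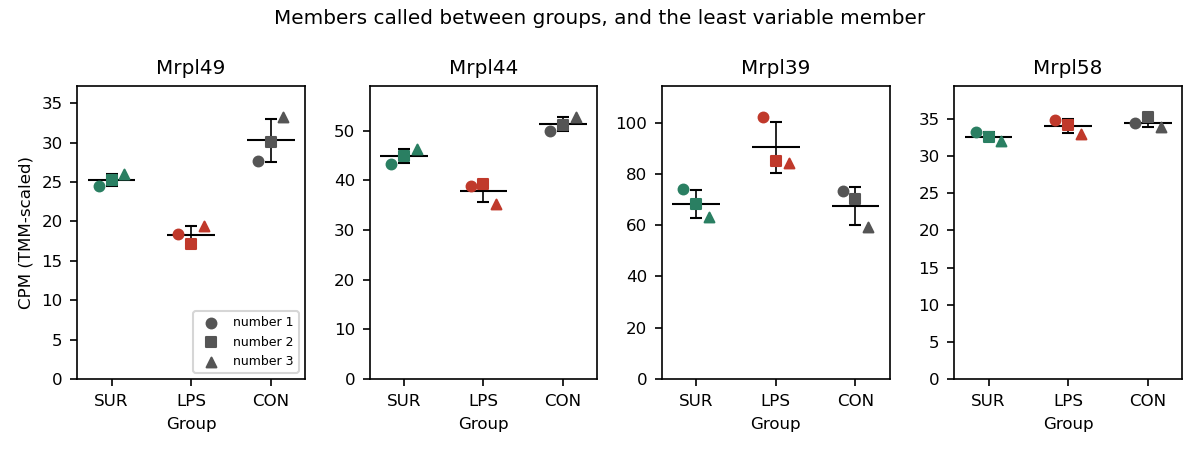
CPM of the 3 members called between groups and of Mrpl58, the member with the lowest coefficient of variation; points are libraries with their number as symbol, the horizontal line is the group mean and the bar its SD (n = 3). Mrpl49 is at 17.1 to 19.4 CPM in LPS, below both SUR and CON, and Mrpl39 is at 84.1 to 102 CPM in LPS, above both.

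The next members in order had small differences that did not pass. Mrps34, a small subunit protein, had a log2 fold change of -0.27 (adjusted p = 0.131), Mrpl9 of -0.22 (0.142) and Mrps27, a pentatricopeptide repeat protein, of -0.20 (0.117). On the other side stood Mrpl52 at 0.26 (0.448), Mrps7 at 0.15 (0.265), Mrpl14 at 0.13 (0.394) and Mrps28 at 0.12 (0.425).

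Scaling set much of the split between higher and lower in this comparison. Upper-quartile scaling moved the median of all tested genes from -0.01 to -0.10 in log2. It called 0 of 78 members higher and 9 lower, among 765 and 1709 of all 11281 tested genes. In limma on log2(FPKM + 1) that median was -0.12, with 0 members higher and 17 lower, among 679 and 2040 genes. Members' medians were -0.12 and -0.16 in these settings, close to those of all genes.

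Same-numbered libraries deviated together, most of all those numbered 1, so each comparison was also fitted with the number as a block. LPS against CON then had 2 members higher (Mrpl39 and Mrps7) and 10 lower (12.8% of members), among 20.1% and 21.7% of all tested genes. The lower ones were Mrpl49, Mrpl44, Mrpl9, Mrpl43, Mrps34, Mrps27, Mrps36, Mrps16, Mrps23 and Mrps2. Without the libraries numbered 1 and with no block, 1 member was higher and 3 were lower, the third being Mrpl9, among 15.7% and 14.4% of genes. Within each of the 3 numbers, 10 members were higher and 22 lower in LPS than in CON, where 30.2% and 32.9% of tested genes were so.

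In SUR against LPS, the same 3 members were called, each in the other direction: Mrpl49 and Mrpl44 rose and Mrpl39 fell. That is 2 members higher (2.56%) and 1 lower (1.28%), with 9.29% and 7.93% of all tested genes. This comparison uses the same LPS libraries as the one above, so the values are given side by side and not as a second line of evidence.

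Mrpl49 had 24.5, 25.2 and 26 CPM in SUR libraries 1, 2 and 3, against 18.4, 17.1 and 19.4 CPM in LPS. The groups did not overlap (log2 fold change 0.46, SE 0.0886, edgeR adjusted p = 0.00744), and the call held without any single library. Mrpl44 had 43.4, 45.0 and 46.3 CPM in SUR and 38.9, 39.3 and 35.2 CPM in LPS (log2 difference of 0.25 with SE 0.066 and adjusted p = 0.0319). Its groups were apart too, but the call was lost in 7 of 9 fits without a library (all but those without CON 1 or LPS 1), with an adjusted p of up to 0.125 without SUR 2. It was also lost with no filter on low counts (0.068) and with only those 2 groups in the fit (0.0678).

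Mrpl39 had 73.9, 68.1 and 63.0 CPM in SUR, against 102, 84.9 and 84.1 CPM in LPS. All SUR libraries lay below the LPS libraries (log2 fold change -0.40, SE 0.109, edgeR adjusted p = 0.034). The call was lost in 6 of 9 fits without a library (CON 2, LPS 1, LPS 2, LPS 3, SUR 2 or SUR 3), with an adjusted p of up to 0.124 without SUR 3, and with upper-quartile scaling (0.074).

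Other members at the ends of the order did not pass. Mrps23 (log2 fold change 0.17, adjusted p = 0.132), Mrps27 (0.13, 0.323) and Mrpl21 (0.09, 0.468) were the next highest. Mrpl52 (-0.37, 0.222), Mrps28 (-0.28, 0.0563), Mrpl32 (-0.22, 0.186) and Mrps30 (-0.21, 0.121) were the next lowest. Mrpl12, the stalk protein that contacts translation factors, had a log2 fold change of -0.20 (0.0838).

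The members' medians in SUR against LPS were -0.07 for the large and -0.09 for the small subunit, but 0.02 and 0.00 with upper-quartile scaling and 0.07 and 0.06 in limma on log2(FPKM + 1). The median of all tested genes was -0.01, and 0.08 and 0.11 in those settings, so the members lay below it in all 3. Upper-quartile scaling called 3 of 78 members higher and 0 lower, among 1595 and 616 of all 11281 tested genes. The FPKM fit called 7 members higher and 1 lower, among 1970 and 518 genes. With the number as a block, 3 were higher, with Mrps23 added, and 14 were lower, among 22.6% and 22.7% of genes. Those 14 (17.9% of members) were Mrpl39, Mrpl52, Mrpl4, Mrpl57, Mrpl12, Mrpl54, Mrpl3, Mrpl45, Mrps28, Mrps30, Mrps7, Mrps5, Mrps9 and Mrps18a. Without the libraries numbered 1, 3 members were higher and 6 lower, among 14.7% and 15.2% of genes. Within each number, 6 members were higher and 38 lower in SUR than in LPS, where 33.7% and 35.6% of genes were so.

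**Figure D3:**
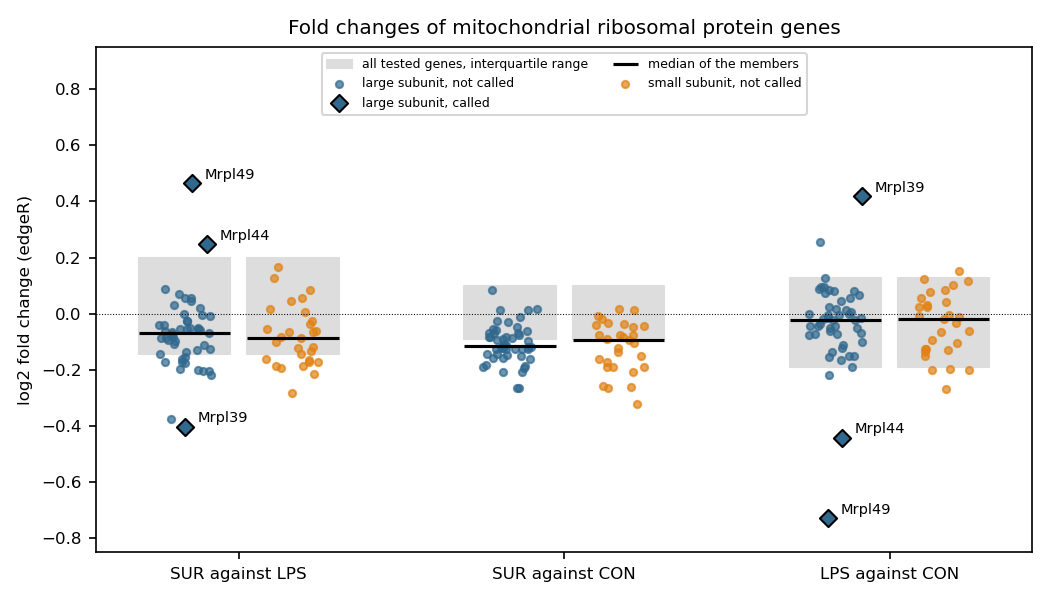
log2 fold changes of the 49 large and 29 small subunit members in the 3 comparisons of groups (TMM scaling); diamonds passed an adjusted p of 0.05, black lines are medians and grey boxes hold the middle 50% of all tested genes. In SUR against CON both medians lie below 0, near -0.1, with 0 members called; in SUR against LPS the sign of the medians depends on the scaling.

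In SUR against CON, most members had slightly lower values, and the test was passed by 0 of them. Of the 78, 0 were called (0.39% of all tested genes were called higher and 0.0355% lower), 10 had an unadjusted p under 0.05, and DESeq2 also called 0. The log2 fold change was below 0 for 72 members (92.3%), against 52.7% of tested genes. Its median was -0.12 in the large subunit (45 of 49 below 0) and -0.09 in the small (27 of 29), beside -0.01 for all tested genes. Over all members the median was -0.11 with TMM, -0.11 with upper-quartile scaling, -0.09 on log2(FPKM + 1) and -0.11 without the libraries numbered 1.

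The lowest were Mrps34, Mrpl34, Mrps6, Mrpl49 and Mrps36, with log2 fold changes of -0.32, -0.27, -0.27, -0.26 and -0.26 (edgeR adjusted p 0.334 to 0.574). Mrps34 had 24.1, 28.7 and 29.2 CPM in SUR, against 34, 31.0 and 37.5 CPM in CON, without overlap. Mrpl49 was at 24.5 to 26 CPM in SUR and 27.7 to 33.2 CPM in CON, again without overlap, so its SUR level lay between the other 2 groups. Mrpl44 had a log2 fold change of -0.19 (adjusted p = 0.351) and likewise lay between them. Mrpl39, at 0.02 (0.998), overlapped with CON.

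The highest values were near 0. They were those of Mrpl14 (log2 fold change 0.09, adjusted p = 0.913), Mrpl39, Mrps23 (0.02, 0.998), Mrps12 (0.02, 0.998) and Mrpl16 (0.01, 0.998). Mrps12 belongs to the decoding region of the small subunit.

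With the number as a block, 0 members were higher and 10 lower (12.8% of members, 5 in each subunit), among 7.37% and 4.18% of all tested genes. They were Mrps34, Mrpl34, Mrps6, Mrpl49, Mrps36, Mrps21, Mrpl44, Mrpl9, Mrpl12 and Mrps18a. Without the libraries numbered 1, 0 members were higher and 1 lower (Mrps21), among 4.44% and 0.742% of genes. Within each of the 3 numbers, 46 members were lower and 2 higher in SUR than in CON, where 25.4% and 23.2% of tested genes were so.

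The lower values were found in each of the parts of the large subunit listed here, and parts of the small subunit were not listed. The median log2 fold change in SUR against CON was -0.13 over 5 members of the stalk base and stalk, -0.08 over 6 members at the polypeptide exit and -0.10 over 8 members of the central protuberance. All of these 19 members were below 0, as were 92.3% of all members, so this does not set these parts apart. The median was -0.10 over 45 members with a bacterial counterpart and -0.12 over 33 without. Cytosolic ribosomal protein genes (79 tested, median -0.11, 91.1% below 0) and nuclear genes of oxidative phosphorylation (75 tested, median -0.12, 94.7% below 0) had like medians, and both stayed below 0 with the other scalings.

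**Figure D4:**
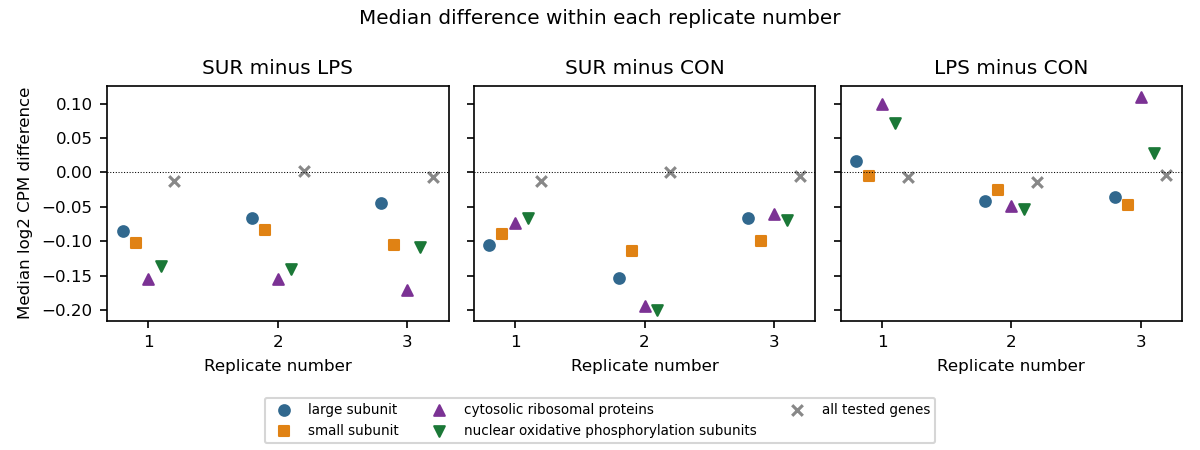
Median log2 CPM difference within each replicate number for both subunits, cytosolic ribosomal protein genes, nuclear genes of oxidative phosphorylation and all tested genes (TMM scaling). Both subunits lie below all tested genes in each number for SUR minus LPS and SUR minus CON; the medians of SUR minus LPS pooled over the numbers change sign for both subunits with another scaling, and LPS minus CON is close to 0 for both.

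Within numbers, the SUR minus CON difference in log2 CPM had a median of -0.11, -0.15 and -0.07 over large subunit members in numbers 1, 2 and 3. For small subunit members it was -0.09, -0.11 and -0.10. Both subunits were below 0 in every number. For SUR minus LPS the medians were -0.08, -0.07 and -0.04 (large) and -0.10, -0.08 and -0.10 (small). For LPS minus CON they were 0.02, -0.04 and -0.04 (large) and -0.01, -0.03 and -0.05 (small), so the sign depended on the number for the large subunit.

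More members were called between the libraries numbered 1 and those numbered 2 and 3 than between any of the 3 groups. These fits are not alike, as the fit for the number holds a group term and the group fits hold no term for the number. With the block, 13 members were higher and 15 lower between numbers. The block had 2 and 10 in LPS against CON, 3 and 14 in SUR against LPS, and 0 and 10 in SUR against CON. With group in the fit, 12 members were higher in the libraries numbered 1 and 15 lower, 27 in all (34.6%); of all tested genes, 25.1% were higher and 24.1% lower, 49.2% together. All 27 kept their sign in each of the 3 groups, but they were called on these same differences, so the shared sign is no added support. The 12 higher were 11 large subunit members and 1 small (Mrps14; 2 small with the number as a block, Mrps10 being added), and the 15 lower were 9 large and 6 small. These counts by subunit cover the Mrpl and Mrps symbols alone. Of 5 mitochondrial ribosomal proteins under other symbols, 3 were higher in the libraries numbered 1 (Ptcd3, Dap3 and Chchd1) and 1 was lower (Aurkaip1). The labels give the number no meaning beyond a replicate.

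Mrpl35 had 40.1 CPM in SUR 1, against 28.3 and 31.6 CPM in SUR 2 and 3. It had 41.7 CPM in LPS 1, against 31.5 and 28.6 CPM in LPS 2 and 3, and 41.2 CPM in CON 1, against 31.5 and 31.6 CPM in CON 2 and 3. Every library numbered 1 was above all of the others (log2 difference 0.43, SE 0.0536, edgeR adjusted p = 4.68e-05).

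Mrpl19 showed the same order, with 119, 139 and 127 CPM in SUR 1, LPS 1 and CON 1, against 92.0 to 105 CPM in the other 6 libraries (log2 difference 0.42, SE 0.0482, adjusted p = 2.31e-05). Mrpl53 (0.41, adjusted p = 0.00111), Mrpl47, which lies by the exit tunnel (0.31, 0.0038), and Mrpl2, a protein of the peptidyl transferase centre (0.25, 0.00288), followed. Mrpl57, Mrpl39, Mrpl24, Mrpl48, Mrpl9, Mrpl4 and Mrps14 were the other members that were higher.

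Mrpl41 was lowest in the libraries numbered 1, with 16.2, 17.8 and 16.5 CPM in SUR 1, LPS 1 and CON 1, against 19.1 to 24.6 CPM in the other 6 libraries (log2 difference -0.35, SE 0.076, adjusted p = 0.00234). Mrpl52 (-0.33, 0.0247), Mrpl17, by the exit tunnel (-0.26, 0.00174), Mrpl34 (-0.24, 0.00278) and Mrps6 (-0.24, 0.0127) followed. The other 10 that were lower were Mrpl20, Mrps36, Mrpl28, Mrpl43, Mrps24, Mrps12, Mrps7, Mrpl27, Mrpl10 and Mrps18a. The count of 15 lower members came to 7 without CON 1, 7 without LPS 1 and 9 without SUR 1, and DESeq2 called 9. Shares of all tested genes in those fits are not given, so the drop may not be particular to the members. In the 9 fits without a library, the call of Mrps18a was lost in all 9, that of Mrps36 in 7, Mrps12 in 6 and Mrpl52 in 3. Mrps6, Mrps7, Mrpl9 and Mrpl39 lost theirs in 1 each. DESeq2 did not call Mrps18a, Mrps36, Mrps12 or Mrps6.

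**Figure D5:**
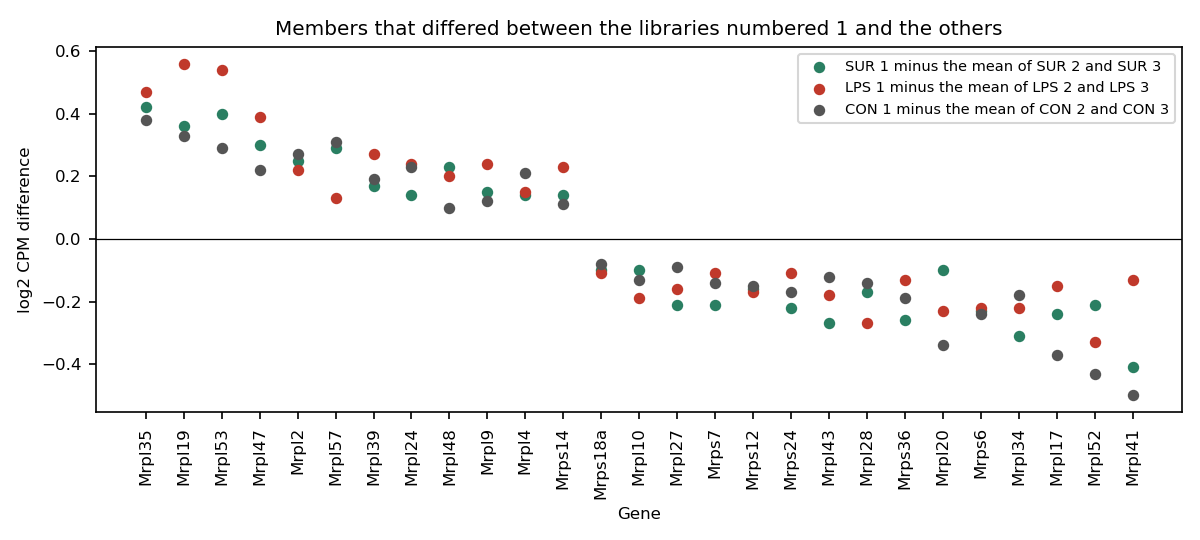
log2 CPM of the library numbered 1 minus the mean of the other 2 libraries of its group, for the 27 members called in that comparison, ordered by the fitted difference. The 12 members at the left are above 0 in all 3 groups and the 15 at the right below 0 in all 3. They were called on these same differences, so the shared sign is no added support.

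Transcript length and GC content moved with the number. The longest coding transcript in GENCODE vM21 had a median of 2586 bases for the 12 members higher in the libraries numbered 1, 883 bases for the 15 lower and 1404 bases for the 51 not called. Median GC content was 47.2%, 53.9% and 49.7% in the same order, and all tested genes had a like split in GC content (47.8%, 52.8% and 50%) and a smaller one in length (3460, 3001 and 3051 bases). Across the 78 members, the difference between numbers had a Pearson r of 0.38 with log2 length and -0.30 with GC content; across 10992 tested genes with a transcript, r was 0.06 and -0.18. These are correlations across genes of the same 9 libraries, and the part of length and GC content in the difference was not tested.

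Nuclear genes of neighbouring systems were one-sided in the same comparison. Of 79 cytosolic ribosomal protein genes tested, 4 were higher in the libraries numbered 1 and 31 lower. Of 75 oxidative phosphorylation genes, 1 was higher and 38 lower, where 25.1% and 24.1% of all tested genes were so. In limma on log2(FPKM + 1) the counts were 4 and 12 for the first list and 2 and 30 for the second. That fit called 2976 and 2371 of all 11281 tested genes. Summed CPM of 15 macrophage markers was 5730 to 6640 in the libraries numbered 1 and 8150 to 9590 in the others. Lyz2 alone took 1750 to 3890 CPM of it, and Marco, Siglecf and Pparg were at or near 0. Of the 12 markers tested, edgeR called 1 higher and 8 lower in the libraries numbered 1, beside 25.1% and 24.1% of all tested genes. Their part in the members' differences was not tested. Marker sums of other cell types (epithelial, mesenchymal or endothelial, and lymphoid or neutrophil) reached at most 1.27 CPM in any library.

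Over the 9 libraries, a member's log2 CPM correlated with the mean of the other members with a median r of 0.44, and 8 members had a negative r. Mrpl58 (0.92), Mrps26 and Mrpl15 (0.84 each) followed the others most closely, and Mrps23 (-0.26), Mrps2 (-0.17) and Mrpl16 (-0.16) least. The libraries share groups and numbers, so these values only describe the table. Mrps18b, a small subunit paralogue of Mrps18a and Mrps18c, was called in none of the 4 comparisons fitted without the block, nor were Mrps18c, Mrps30, Mrpl12 and Mrpl58. In these fits 49 members were called in none of the 4, while the block called Mrps30 and Mrpl12 lower as given above.

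Genes that act on the mitochondrial ribosome were counted in lists by role. Of 24 tested genes of ribosome assembly and rRNA modification, 2 rose and 5 fell in LPS against CON, where 8.98% of all tested genes rose and 9.36% fell. Mrm1, which methylates mitochondrial large subunit rRNA, had 7.39 CPM in LPS and 17.6 CPM in CON (log2 fold change -1.25, SE 0.157, edgeR adjusted p = 0.00072). Mrm2, another such methyltransferase, had 3.54 CPM in LPS and 8.85 CPM in CON (-1.32, SE 0.17, adjusted p = 0.000823). Ybey (-0.84), the pseudouridine synthase Rpusd4 (-0.81) and Mettl17 (-0.72) also fell. Ddx28 and Dhx30, helicases of ribosome assembly, rose by 0.25 and 0.22 in log2, but upper-quartile scaling ended both calls (adjusted p = 0.146 and 0.179). So did limma on log2(FPKM + 1) (0.311 and 0.332), and the calls were lost in 6 and 5 of 9 fits without a library.

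In SUR against LPS, 6 of these 24 genes rose and 2 fell, where 9.29% of all tested genes rose and 7.93% fell. Mrm1 was at 17.2 CPM in SUR, against 7.39 CPM in LPS (log2 fold change 1.22, adjusted p = 0.00119), Ybey at 7.33 CPM in SUR against 2.91 CPM in LPS (1.33, 0.000721) and Mrm2 at 6.84 CPM in SUR against 3.54 CPM in LPS (0.95, 0.00562). Rpusd4 also rose, as did Tfb1m and Mettl17, whose calls were lost in 9 and 8 of the 9 fits without a library. Ddx28 and Dhx30 fell, with the calls again lost under upper-quartile scaling (0.145 and 0.149) and in limma on log2(FPKM + 1) (0.371 and 0.344). They were also lost in 6 and 5 of the 9 fits without a library. In SUR against CON, 0 of the 24 were called by edgeR, with 4 at an unadjusted p under 0.05. The block called 1 higher and 1 lower, among 7.37% and 4.18% of all tested genes.

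Among 20 mitochondrial aminoacyl-tRNA synthetases and subunits of the glutamyl-tRNA amidotransferase (Gatb, Gatc and Qrsl1), 0 rose and 2 fell in LPS against CON, a share near that of all genes. They were Pars2, with 5.94 CPM in LPS and 12 CPM in CON (log2 fold change -1.02, adjusted p = 0.000817), and Hars2 (-0.48, 0.00338); both rose in SUR against LPS (0.99 and 0.37; Hars2 was not called in 3 of 9 fits without a library). With the block, 4 of the 20 were higher and 1 lower in SUR against LPS, among 22.6% and 22.7% of all tested genes. Among 14 translation factors, 0 rose and 2 fell in LPS against CON, where 8.98% and 9.36% of all tested genes did. They were Mtif3 (-0.67, 0.0195, lost in 3 of 9 fits without a library) and Taco1 (-0.55, 0.0424, lost in 7 of 9). Taco1 rose in SUR against LPS (0.61, 0.0298, lost in 4 of 9). With the block, 6 of the 14 were lower in LPS against CON, where 21.7% of all tested genes were so. In SUR against LPS, the block called 5 of the 14 higher and 1 lower, among 22.6% and 22.7% of genes. Of 22 genes of mitochondrial transcription and RNA processing, 2 rose and 0 fell in LPS against CON, again a share near that of all genes. Upper-quartile scaling called 1 higher and 1 lower, limma on log2(FPKM + 1) 1 higher and 3 lower, and the block 4 higher and 1 lower. Of all 11281 tested genes, these settings called 765 and 1709, 679 and 2040, and 2269 and 2445. Supv3l1, the other one that rose, lost its call in 4 of 9 fits without a library and with upper-quartile scaling (0.11). Fastkd5, which processes mitochondrial RNA, had 20.2 CPM in LPS and 12.8 CPM in CON (0.66, 0.00841). In SUR against LPS, 0 of the 22 rose and 3 fell (Fastkd5, Supv3l1 and Tbrg4), where 9.29% and 7.93% of all tested genes did. Upper-quartile scaling and the FPKM fit each called 2 higher and 1 lower, and the block 2 higher and 6 lower. Of all tested genes, these settings called 1595 and 616, 1970 and 518, and 2547 and 2562. Supv3l1 and Tbrg4 each lost their calls in 8 of 9 fits without a library and with upper-quartile scaling (0.134 and 0.292). Of 5 mitochondrial ribosomal proteins under other symbols, 0 were called in the 3 comparisons of groups. The block called 2 lower in SUR against LPS and 1 lower in SUR against CON, among 22.7% and 4.18% of all tested genes.

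Reads of neighbouring genes limit some values, because the strandedness of counting is not given in the sources used here. In GENCODE vM21, 26 members overlapped another protein-coding gene, and 18 (23.1%) shared a start region with an oppositely oriented coding gene within 1000 bases, against 11.3% of tested genes. Mrpl49 lies 59 bases from the start of Fau (LPS against CON log2 fold change 0.14, adjusted p = 0.292) and overlaps Syvn1 (0.37, 0.0474). Mrpl44 overlaps Wdfy1 (-0.12, 0.32), Mrps6 overlaps Slc5a3, and Mrpl39 overlaps no other protein-coding gene. RefSeq lists pseudogenes of Mrpl23, Mrpl27, Mrpl48 and Mrps36, whose values are uncertain where reads were shared.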

How the data were processed

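The measurements are RNA-seq of 9 MH-S libraries. The authors used HISAT2 2.0.4 and GRCm38 (mm10), per the submitters' processing notes; of the counter, annotation and strand setting, the sources used here say nothing. Expected counts as deposited are unnormalized estimates per gene, per the file headers and values; 93.4% were whole, and all were rounded. The deposited FPKM and TPM values are scaled by the authors for length and depth, per the file headers; FPKM served an alternative and TPM the levels between genes.

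Library totals were 15729402 (LPS 2) to 16675250 (SUR 3) counts. edgeR 4.0.16 (R 4.3.3) tested 11281 genes after filterByExpr with its quasi-likelihood F test, TMM factors (0.934 to 1.04), all 9 libraries in 1 fit and Benjamini-Hochberg adjustment over all tested genes at 0.05. The fit for the libraries numbered 1 had group as a term. CPM are TMM-scaled, and SEs were derived from F. Residuals of same-numbered libraries correlated at 0.435 to 0.801 in 9 pairs, against -0.643 to 0.437 in 18 pairs with different numbers, so blocked fits are given beside the results. All negative values came from pairs with a library numbered 1. Pairs of a number 2 with a number 3 ran from 0.347 to 0.437, against 0.435 to 0.586 within number 2 or within number 3.

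Members, lists and rules were chosen with earlier results of these data known. Per comparison, the 5 highest and 5 lowest members are named, besides the extremes of TPM and of correlation, and 8 members chosen for their role; further names list calls or follow from them and were chosen after their values were seen. Alternatives were DESeq2 1.42.0, limma 3.58.1 on log2(FPKM + 1) and log2(FPKM + 0.1), upper-quartile scaling, other filters, single libraries left out, and fits without the libraries numbered 1 or with 2 groups. Methods were also run on simulated counts, drawn independently for each library. Those held no effect of the number beside one of the group, so they do not speak to how the fits behave with same-numbered libraries that deviate together. Gene positions of members are RefSeq's on GRCm38.p6. Figures used matplotlib 3.10.9.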

Additional observations from a re-analysis of the deposited data

How the results depend on the processing

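Of 22 calls among the named members, 10 held under every alternative; of 380 alternative values, 313 kept call and direction, 67 lost the call and 0 reversed. Members called higher and lower in LPS against CON (1 and 2) came to 0 and 9 with upper-quartile scaling, 0 and 17 in limma on log2(FPKM + 1) or log2(FPKM + 0.1), and 2 and 10 with the replicate block. In SUR against LPS (2 and 1) they came to 7 higher in the FPKM fits, 1 higher without a filter or with only those 2 groups, and 3 (DESeq2), 0 (upper-quartile scaling), 14 (replicate block) and 6 (without the libraries numbered 1) lower. In SUR against CON (0 and 0), 10 were lower with the block and 1 without the libraries numbered 1. Between numbers (12 and 15), the fit without the group term gave 7 and 2, and DESeq2 9 lower. The block moved no other count over all 78 members by over 1.5 times. Leaving out 1 library gave 0 to 1 higher and 2 to 3 lower in LPS against CON, 1 to 2 and 0 to 2 in SUR against LPS, 0 in SUR against CON, and 9 to 14 and 7 to 14 between numbers. Medians (large, small) without 1 library ran from -0.065 to 0.004 and -0.05 to -0.002 in LPS against CON, -0.102 to -0.037 and -0.118 to -0.088 in SUR against LPS, -0.129 to -0.097 and -0.12 to -0.072 in SUR against CON, and 0.003 to 0.027 and -0.025 to 0.015 between numbers; these were added after seeing the data. With upper-quartile scaling they were -0.117 and -0.113 in LPS against CON and 0.022 and 0.002 in SUR against LPS, and on FPKM -0.156, -0.165, 0.069 and 0.063, with -0.076 (small) in SUR against CON and 0.044 (small) between numbers. Without the libraries numbered 1, small subunit medians were -0.04 in LPS against CON and -0.114 in SUR against CON. The ratio of large over small was 1.896, 1.902 and 1.9 by CPM, and 2.005, 2.04 and 2.003 by position, in SUR, LPS and CON. The cause of these changes was not tested. For DESeq2, log2(FPKM + 0.1), other filters, 2 groups, no group term and 1 library left out, no shares of all tested genes are given. The members' counts in those settings are thus not set against the whole fit. With 3 libraries a group, the smallest difference between groups called for a member was 0.25 in log2 (Mrpl44 in SUR against LPS). That is for edgeR with filterByExpr, TMM, all 9 libraries and no block. The block called smaller ones, such as -0.17 for Mrpl3 in SUR against LPS.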
